A study of Rattus norvegicus with 16 samples.

Results

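Solute carriers are the membrane proteins that move sugars, amino acids, phosphate, organic acids, metals and nucleosides across the plasma membrane and the inner mitochondrial membrane. They were taken here as every probe set (a group of oligonucleotides for a transcript) whose platform annotation gives a single gene symbol made of Slc and a digit. The Slc22 drug transporters and the salt cotransporters Slc12a1 and Slc12a3, 13 probe sets in all, were left out, and the Slco genes do not carry the prefix. The rule used names and no measured value. It found 168 of 8740 probe sets, which stand for 110 of the 4736 genes with a symbol, and 40 of these genes have several probe sets, up to 5 each. Of the 168, 114 probe sets of 84 genes were bright enough to be tested and 54 were not. Probe sets whose names end in _s_at, _g_at or _i_at can match several transcripts.

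Both kidneys of 8 rats were measured, each on its own 1-colour array, which gives 16 arrays. Right kidneys carry the label ACTH (adrenocorticotropic hormone, the pituitary hormone that drives adrenal steroid output) in rats 1 and 5, the label DEX in rats 3 and 7, and the label saline in rats 2, 4, 6 and 8. All 8 left kidneys are labelled as controls, and the labels do not spell DEX out. The design text speaks of 2 rats for every treatment, whereas the titles, which were followed, give 4 saline rats. Strain, age, sex, dose, route and duration are not in the labels used here, so it cannot be told whether the left kidneys were exposed to the hormones. The tissue was whole kidney.

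In the kidney most solute carriers work in the proximal tubule, where sodium-coupled carriers of the brush border take phosphate, glucose, amino acids and organic acids out of the filtrate. Carriers of the basolateral membrane then pass them on to the blood. The Slc25 family works in the inner mitochondrial membrane, where it exchanges nucleotides, phosphate and the acids of the citrate cycle with the cytosol. Phosphate and glucose carriers of the tubule are textbook targets of hormones, and glucocorticoids are known to lower tubular phosphate uptake and to stimulate sodium-proton exchange.

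Values are deposited signal intensities. Kidney markers were bright in all left kidneys, with Umod at 1874 to 3260 and the water channel Aqp1 at 1097 to 1574. The arrays of rats 1 to 4 stood apart from those of rats 5 to 8 on the first principal component, which held 45.7% of the variance. Each of these sets holds 1 ACTH, 1 DEX and 2 saline rats. No label names the cause. A change is the right minus left difference of log2(signal + 16) in a rat, an effect is the change in the hormone rats minus that in the saline rats, and ± gives the standard error of the fit. The ACTH and DEX effects share the 4 saline rats.

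No solute carrier passed the threshold, an adjusted p under 0.05 in limma, in any of 6 comparisons. The comparisons were the ACTH effect (0 of 114 members, against 0.496% of all 5244 probe sets tested), the DEX effect (0, against 0%), their difference (0, against 0.572%), right over left in saline rats (0, against 0%), left kidneys of ACTH over saline rats (0, against 0%) and left kidneys of DEX over saline rats (0, against 0%). At an unadjusted p under 0.05, limma gave 14 members for ACTH, which is 12.3% of them against 9.44% of all probe sets. It gave 4 for DEX (3.51%, against 2.94%), 17 for the difference (14.9%, against 12.2%) and 3 for right over left in saline rats (2.63%, against 3.74%). It gave 0 for the left kidneys of ACTH rats (against 0.4%) and 2 for those of DEX rats (1.75%, against 0.877%). Most effects were small, with 110 of 114 ACTH effects (96.5%, against 93.7% of all probe sets) and 113 of 114 DEX effects (99.1%, against 97.7%) under 0.5 in size. The median standard error was 0.18.

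Groups that did not overlap were also counted. For ACTH, both hormone rats lay above all 4 saline rats in 9 members (7.89%, against 7.82%) and below them in 9 (7.89%, against 7.84%). For DEX the counts were 14 above (12.3%, against 6.08%) and 5 below (4.39%, against 6.33%). The ACTH shares were thus near those of all probe sets, and the DEX share above was about 2 times as high. The left kidneys enter these changes. In left kidneys alone both DEX rats lay below all 4 saline rats in 8 members (7.02%, against 2.42%) and above them in 0 (against 2.44%). DEX effects were positive in 72 of 114 members, 63.2% against 49.5% of all probe sets, and the share was 57.9% after quantile normalization and 43.9% with right kidneys only. It was 50% in the first 4 rats alone and 70.2% in the last 4 alone. Shares over all probe sets are not given here for these settings. The members' median effect was −0.01 for ACTH and 0.02 for DEX, and the median over all probe sets was −0.0003 and −0.003.

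**Figure D1:**
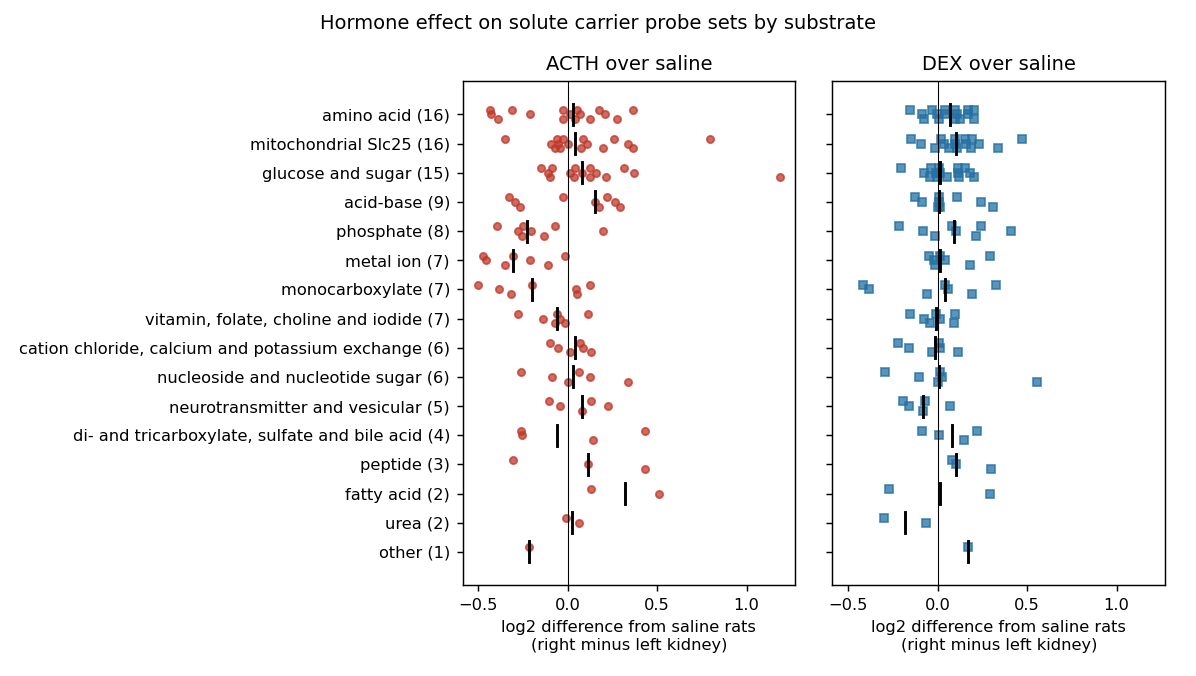
Hormone effects (log2, x axis) of the 114 tested solute carrier probe sets, grouped by what they carry, with the number of probe sets in brackets. Each point is a probe set and each black bar a median, and the ACTH panel shows a Slc2a4 probe set at 1.19 and the Slc25a1 probe set at 0.80 away from the rest.

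Most probe sets of phosphate carriers lay slightly lower after ACTH without passing the test. Slc34a1, the brush-border cotransporter NaPi-IIa that takes up most filtered phosphate, has 5 probe sets, and 4 of its ACTH effects were negative. All 5 were read on the same arrays, and 1 of the 4 involves a low left kidney of saline rat 2, described below. Its promoter is shown because 4 of 5 probe sets share a sign, as the 250 bases before the start of the gene in RefSeq's GRCr8 assembly (chr17:9238984-9239233, minus strand, 53.2% G and C), with capitals for a match to the TATA box.

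Slc34a1: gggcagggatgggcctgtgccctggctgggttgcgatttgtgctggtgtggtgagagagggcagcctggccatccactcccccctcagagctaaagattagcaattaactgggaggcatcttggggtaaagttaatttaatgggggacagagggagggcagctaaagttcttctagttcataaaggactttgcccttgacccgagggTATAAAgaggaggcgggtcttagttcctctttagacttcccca

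The motifs searched, on both strands of such windows, were CCAAT, the GC box GGGCGG, the TATA box TATAAA and the glucocorticoid receptor half-site AGAACA. The Slc34a1 window holds TATAAA from 43 to 38 bases before the start. Among all 33469 rat promoters of this length 12.9% hold TATAAA, 34% hold CCAAT, 30.5% hold GGGCGG and 17.5% hold AGAACA. Among 92 member promoters the shares were 8.7%, 33.7%, 52.2% and 12%. A match describes letters in a window and is neither a bound site nor a cause.

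The brightest Slc34a1 probe set, AB013455_g_at, read 4916 at its lowest, 5525 at the median and 6237 at its highest over the 8 left kidneys. It read 4343 and 5299 in the right kidneys of ACTH rats 1 and 5, 5748 and 5862 in those of DEX rats 3 and 7, and 5944, 6318, 6278 and 5873 in those of saline rats 2, 4, 6 and 8. Both ACTH right kidneys lay below every other right kidney, and all but the ACTH right kidney of rat 1 lay within the range of the left kidneys or above it. Its ACTH effect was −0.28 ± 0.12 (95% interval −0.55 to −0.01, adjusted p = 0.502 in limma). A second bright probe set, AB013455_at, gave −0.25 ± 0.11 (adjusted p = 0.513).

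In the dimmer probe set AB013453_at the right kidneys of saline rats also lay low. It read 440.0 to 741 in left kidneys, with a median of 558, and 554, 365, 373 and 450 in the saline right kidneys. The right kidney lay below the left one in all 8 rats, and the saline changes were −0.41, −0.52, −0.60 and −0.62. The saline mean of −0.54 ± 0.10 had the smallest unadjusted p of any member in any comparison, with an adjusted p of 0.209 in limma. The ACTH right kidneys read 323 and 281, with changes of −0.72 and −1.15 and an effect of −0.40 ± 0.17 (adjusted p = 0.491). The DEX right kidneys read 521 and 380, with changes of −0.05 and −0.20 and an effect of 0.41 ± 0.17 (adjusted p = 0.999). ACTH rats lay below and DEX rats above all saline rats in this probe set. The ACTH minus DEX difference was −0.81 ± 0.20 (adjusted p = 0.11), and its value was −1.03 (adjusted p = 0.0344) without rat 1, −0.59 (0.297) without rat 5, −0.73 (0.677) without rat 3 and −0.54 (adjusted p = 1) with right kidneys only. The ACTH effect was −0.18 without rat 5, and the DEX effect was 0.05 with right kidneys only, where the left kidneys of DEX rats do not enter.

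In the bright probe sets AB013455_g_at and AB013455_at the changes of the ACTH rats also lay below those of all saline rats. Those of the DEX rats did not both lie above them. The remaining Slc34a1 probe sets shared neither part of that pattern. In rc_AA891726_s_at the left kidney of rat 2 read 1191 against 2644 to 3739 in the other left kidneys, which gave that saline rat a change of 1.24. The ACTH effect of this probe set was −0.21 ± 0.28. Both ACTH right kidneys nevertheless read above their left ones, 3376 against 2644 and 2876 against 2864. Its negative sign, 1 of the 4 counted above, thus rests on the saline changes, of which that of rat 2 was the largest. The probe set rc_AI105198_i_at had a positive ACTH effect of 0.20 ± 0.17. With DEX rc_AA891726_s_at had −0.21 ± 0.28 and rc_AI105198_i_at had 0.10 ± 0.17.

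Slc17a1, a brush-border anion carrier first described as a phosphate transporter, had ACTH effects of −0.14 ± 0.16 and −0.26 ± 0.20 in its 2 tested probe sets (of 3) and DEX effects of 0.22 ± 0.16 and 0.24 ± 0.20. Slc20a2, the housekeeping phosphate carrier Pit2, had −0.07 ± 0.13 and −0.08 ± 0.13. The phosphate group holds 8 tested probe sets of 3 genes, 5 of them for Slc34a1, and 7 of 8 ACTH effects were negative. The median was −0.23, against −0.0003 over all probe sets, of which 49.9% had positive effects. The count stayed at 7 of 8 after quantile normalization, with right kidneys only (median −0.10) and within either set of 4 rats, and it was 6 of 8 without rat 2. Beside this, 4 of 12 proximal tubule markers had positive ACTH effects, with a median of −0.08, and 1 of them, Kap, passed at −0.78 ± 0.125 (adjusted p = 0.018, limma). In whole kidney, fewer cells of a type and less RNA per cell cannot be told apart, and the part of the markers in the phosphate values was not tested.

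**Figure D2:**
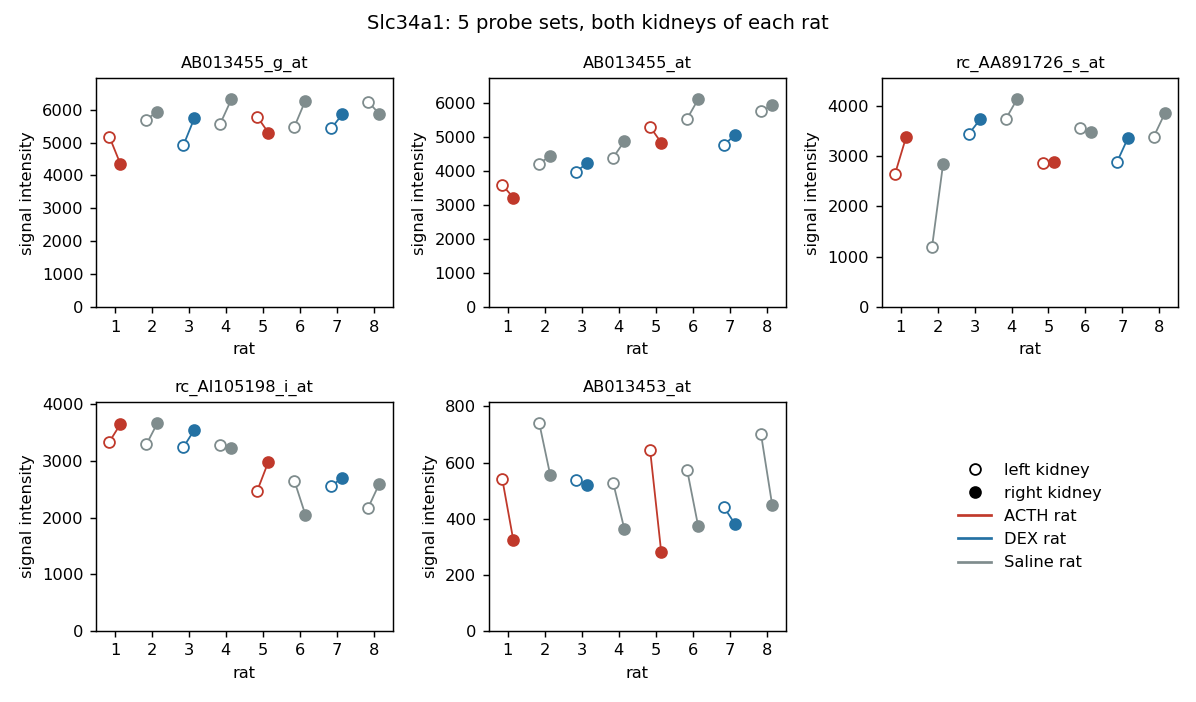
Signal intensity (y axis, from 0) of the 5 Slc34a1 probe sets in the left (open) and right (filled) kidney of each rat (x axis), with lines joining the kidneys of 1 rat and colours for the treatment. In AB013453_at every line falls from left to right, least in DEX rats 3 and 7, and in rc_AA891726_s_at the left kidney of rat 2 stands alone at 1191.

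Among the glucose and sugar carriers, Slc2a4 had the largest ACTH effect of all members. Slc2a4 is GLUT4, the insulin-responsive glucose carrier of fat and muscle. Its probe set D28561_s_at read 105 at its lowest, 120 at the median and 144 at its highest in left kidneys, 123, 132, 134 and 107 in the saline right kidneys, and 135 and 107 in the DEX right kidneys. The ACTH right kidneys read 496 and 174. Both lay above all 14 other arrays, and rat 1 stood far above rat 5. The changes were 1.90 and 0.50 in the ACTH rats against −0.15 to 0.19 in the saline rats, an effect of 1.19 ± 0.29 (2.28-fold on the scale of signal + 16, 95% interval 0.56 to 1.81, adjusted p = 0.106 in limma). Its effect was 1.88 (adjusted p = 0.000797) without rat 5 and 0.49 (adjusted p = 0.265) without rat 1.

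The second Slc2a4 probe set, rc_AA799760_s_at, read 98.73 and 76.04 in the ACTH right kidneys, above its range of 51.65 to 64.18 in left kidneys, with an effect of 0.37 ± 0.14 (adjusted p = 0.392). DEX effects were −0.04 ± 0.29 and 0.01 ± 0.14. Its promoter is not shown here.

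Markers of fat tissue were high on the same array as Slc2a4. Of 11 fat markers listed, 7 were tested (Cfd, Cidea, Fabp4, Lep, Lpl, Scd and Ucp1) and none was at 0. Their mean log2 signal was 10.20 in the ACTH right kidney of rat 1 and 7.62 in that of rat 5, against 6.80 to 8.56 in left kidneys, 6.83 to 7.44 in saline right kidneys, and 6.88 and 6.98 in DEX right kidneys. All 7 had positive ACTH effects, with a median of 1.03, and none passed, while 3 of 7 passed in ACTH minus DEX, Ucp1 with 3.27 (adjusted p = 0.0351). For DEX 1 of 7 was positive with a median of −1.34, none passed, and in the left kidneys of DEX rats 6 of 7 lay above saline with a median of 1.19, so high left kidneys enter the DEX values and the difference. When the fit took the score in as a covariate, the Slc2a4 effect was 0.92 (adjusted p = 0.373). The part of fat tissue in the Slc2a4 signal was not tested beyond this fit.

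**Figure D3:**
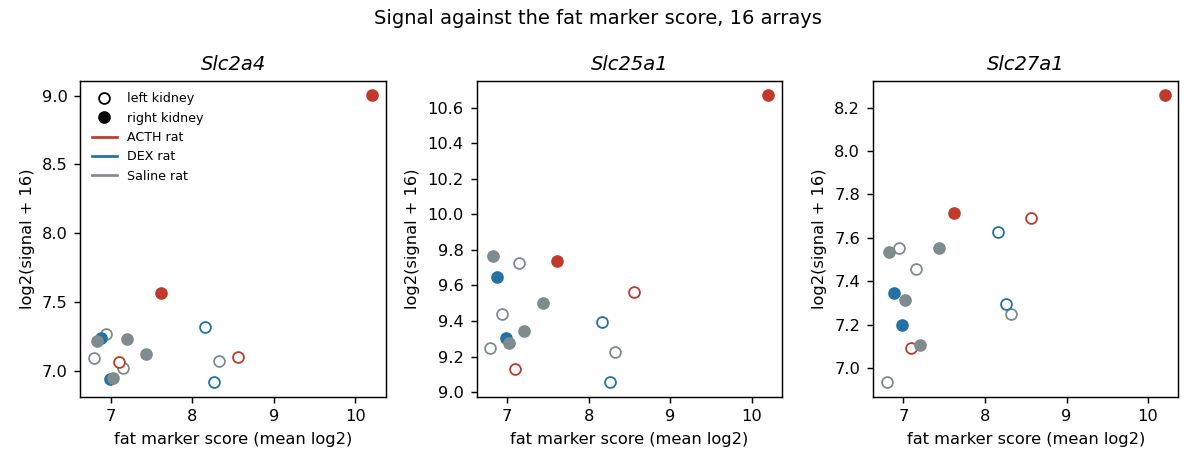
log2(signal + 16) of Slc2a4, Slc25a1 and Slc27a1 (y axes, which do not start at 0) against the mean log2 signal of 7 fat markers (x axis) on the 16 arrays, open for left and filled for right kidneys. The ACTH right kidney of rat 1 lies at the top right of each panel with a score of 10.20, whereas left kidneys, with scores up to 8.56, read 105 to 144 in Slc2a4.

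The glucose carriers of the tubule gave small values. Slc5a2, the cotransporter SGLT2 that recovers most filtered glucose, read 785.4 to 980.5 in left kidneys and 949 and 957 in the ACTH right kidneys, with an effect of 0.16 ± 0.18. Slc5a1, its partner SGLT1 of the later proximal tubule, had −0.10 ± 0.16 and −0.15 ± 0.15. Slc2a2, the basolateral exit carrier GLUT2, read 331 and 221 in the ACTH right kidneys against 108 to 244 on the left, with an effect of 0.21 ± 0.18. For DEX the effects were 0.05 for Slc5a2, 0.01 and 0.12 for Slc5a1, and 0.20 for Slc2a2.

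Slc2a1 (GLUT1, a widely expressed glucose carrier) had ACTH effects of 0.01 and 0.12 that joined opposite changes, −0.31 and −0.49 in rat 1 and 0.30 and 0.73 in rat 5. Slc2a5, the fructose carrier, had −0.09 and 0.03. Slc37a1 and Slc37a4, carriers of sugar phosphates in the endoplasmic reticulum, had 0.32 ± 0.16 for the first and −0.11 and 0.04 for the second. Over the group 11 of 15 ACTH effects were positive with a median of 0.08, a count that was 6 of 15 without rat 5 and 8 of 15 without rat 8 and 10 of 15 after quantile normalization. The DEX median was 0.01, with 9 of 15 positive.

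Amino acid carriers went both ways after ACTH, with 9 of 16 probe sets positive and a median of 0.03. Slc3a1 is the heavy chain rBAT that anchors the cystine carrier in the brush border. It read 2670 at its lowest, 2894 at the median and 3513 at its highest in left kidneys, 3259, 3199, 2825 and 2609 in saline right kidneys, and 3365 and 2958 in DEX right kidneys. The ACTH right kidneys read 2611 and 2340, the latter the lowest of all 16 arrays. The ACTH effect was −0.39 ± 0.13 (95% interval −0.68 to −0.10, adjusted p = 0.322) and the DEX effect 0.17 ± 0.13 (adjusted p = 0.999). Changes were −0.36 and −0.40 in ACTH rats, −0.11 to 0.13 in saline rats, and 0.23 and 0.13 in DEX rats, so the ACTH rats lay below all 6 other rats. The ACTH minus DEX difference was −0.56 ± 0.15 (adjusted p = 0.146).

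The Slc3a1 promoter (GRCr8, chr6:15394750-15394999, minus strand, 48.4% G and C) is shown because both ACTH rats gave nearly the same negative change. Capitals mark TATAAA at 64 to 59 bases before the start, which overlaps its reverse complement TTTATA at 66 to 61.

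Slc3a1: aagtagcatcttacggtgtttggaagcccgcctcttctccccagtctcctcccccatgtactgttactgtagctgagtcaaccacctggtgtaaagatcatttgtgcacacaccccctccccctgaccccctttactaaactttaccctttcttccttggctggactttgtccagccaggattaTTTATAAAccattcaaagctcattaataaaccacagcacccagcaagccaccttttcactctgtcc

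Slc1a1, the glutamate carrier EAAC1 of the brush border, had negative ACTH effects in all 3 probe sets. In D63772_at the ACTH right kidneys read 518.5 and 392.1 against 466.8 to 860.6 on the left, with an effect of −0.43 ± 0.19 (adjusted p = 0.49), and the other probe sets had −0.43 ± 0.21 and −0.31 ± 0.23. The DEX effects were 0.13, 0.01 and 0.11. Slc6a20a, a carrier of proline and related imino acids, had −0.21 ± 0.16 with ACTH.

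Values on the positive side came from Slc7a5, the light chain LAT1 for large neutral amino acids, at 0.36 ± 0.17 (adjusted p = 0.536) and Slc6a18, a neutral amino acid carrier of the brush border, at 0.27 ± 0.19, with 0.60 in rat 5 and 0.10 in rat 1. In Slc7a5 the saline right kidney of rat 8 read 129.8 against 167.7 to 169 in the other saline right kidneys. The ACTH right kidneys read 158.5 in rat 1 and 221.1 in rat 5, against 155.9 and 170 on the left. Right over left in saline rats was −0.18 ± 0.10, which enters the Slc7a5 effect. Slc6a17, a vesicular amino acid carrier, had 0.21 ± 0.15. Slc3a2, the heavy chain 4F2hc that LAT1 needs, had 0.01 and 0.12. Slc6a6, the taurine carrier, had 0.05 with ACTH and 0.20 ± 0.16 with DEX. The lowest DEX value was −0.15 ± 0.14 for the glycine carrier Slc6a5. DEX effects were positive in 11 of 16 probe sets of the group, with a median of 0.07.

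Slc25a1, the citrate carrier that exports citrate from mitochondria for lipid synthesis, had the smallest adjusted p of any member in any comparison. Its probe set L12016_at read 516 at its lowest, 624 at the median and 830 at its highest in left kidneys, 708, 854, 634 and 604 in saline right kidneys, and 787 and 617 in DEX right kidneys. The ACTH right kidneys read 1613 and 839. Rat 1 lay above all other arrays, while rat 5 lay within the range of the remaining arrays but above its own left kidney at 544. The effect was 0.80 ± 0.17 (1.74-fold, 95% interval 0.42 to 1.17, adjusted p = 0.0666 in limma). It was 1.04 (adjusted p = 0.00899) without rat 5, 0.55 (adjusted p = 0.166) without rat 1 and 0.67 (adjusted p = 0.258) with the fat score in the fit. The DEX effect was 0.19 ± 0.17, from a change of 0.25 in both DEX rats against 0.03 to 0.12 in the saline rats.

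Slc27a1, a fatty acid uptake protein of fat, muscle and other tissues, followed in size. Its probe set U89529_at read 106 at its lowest, 150 at the median and 191 at its highest in left kidneys, 172, 170, 122 and 143 in saline right kidneys, and 147 and 131 in DEX right kidneys. The ACTH right kidneys read 290 and 194, above every other array. The effect was 0.51 ± 0.17 (adjusted p = 0.292), and 0.37 (adjusted p = 0.542) with the fat score in the fit. DEX had −0.27 ± 0.17, and the ACTH minus DEX difference was 0.78 ± 0.19 (adjusted p = 0.11). The fat markers had medians of −1.34 and 2.81 in these comparisons, and their part in the Slc27a1 values was not tested beyond the fits with the fat score. Slc27a2, a fatty acid carrier and acyl-CoA ligase of the proximal tubule, had 0.13 ± 0.17 with ACTH and 0.29 ± 0.17 with DEX.

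The promoters of this pair are shown beside their values because both genes serve lipid metabolism and both had 95% intervals above 0 for ACTH. They are 250 bases before the start in GRCr8, at chr11:96559804-96560053 (plus strand, 69.6% G and C) for Slc25a1 and chr16:18312717-18312966 (plus strand, 65.6% G and C) for Slc27a1. Capitals mark motif matches. Slc25a1 holds ATTGG, the reverse complement of CCAAT, at 151 to 147, GC boxes at 132 to 127, 105 to 100, 63 to 58 and 37 to 32, and TGTTCT, the reverse complement of AGAACA, at 184 to 179 bases before the start. Slc27a1 holds CCAAT at 179 to 175.
Slc25a1: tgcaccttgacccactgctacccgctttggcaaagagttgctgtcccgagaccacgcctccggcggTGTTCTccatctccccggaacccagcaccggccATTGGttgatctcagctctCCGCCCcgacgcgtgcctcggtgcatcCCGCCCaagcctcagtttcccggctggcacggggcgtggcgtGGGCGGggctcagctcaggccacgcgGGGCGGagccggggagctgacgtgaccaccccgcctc
Slc27a1: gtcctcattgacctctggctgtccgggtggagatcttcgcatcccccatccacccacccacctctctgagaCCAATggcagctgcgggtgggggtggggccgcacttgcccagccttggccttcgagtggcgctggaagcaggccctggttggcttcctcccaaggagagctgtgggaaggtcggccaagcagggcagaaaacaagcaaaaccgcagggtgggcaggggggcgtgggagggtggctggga

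The other mitochondrial carriers went both ways after ACTH, with 7 of 15 probe sets positive and effects from −0.35 to 0.36. Slc25a10, which exchanges dicarboxylates for phosphate, had 0.26 ± 0.16, 0.36 ± 0.21 and 0.33 ± 0.19 in its 3 probe sets. The carnitine carrier Slc25a20 had 0.19 ± 0.18. The abundant phosphate carrier Slc25a3 read 1830 to 2542 on the left and had 0.08 ± 0.14, and the ADP/ATP carriers Slc25a4 and Slc25a5 had −0.05 ± 0.17 and −0.05 ± 0.15. Slc25a11, the oxoglutarate carrier, had 0.11 and −0.07.

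After DEX 13 of 16 mitochondrial probe sets were positive, with a median of 0.10, and the count was 14 after quantile normalization, 8 with right kidneys only and 9 without rat 3. Slc25a30, an uncoupling-protein relative, read 624 and 238 in the DEX right kidneys against 437 and 162 in the left kidneys of the same rats. Its changes were 0.50 and 0.51 in DEX rats, −0.46 to 0.33 in saline rats and −0.28 and −0.36 in ACTH rats. The DEX effect was 0.47 ± 0.21 (adjusted p = 0.999), the ACTH effect −0.35 ± 0.21 (adjusted p = 0.65) and their difference −0.82 ± 0.24 (adjusted p = 0.185). Slc25a17, a peroxisomal member, had 0.23 ± 0.16 with DEX, and Slc25a23, a calcium-regulated carrier of ATP and phosphate, had −0.15 ± 0.18.

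**Figure D4:**
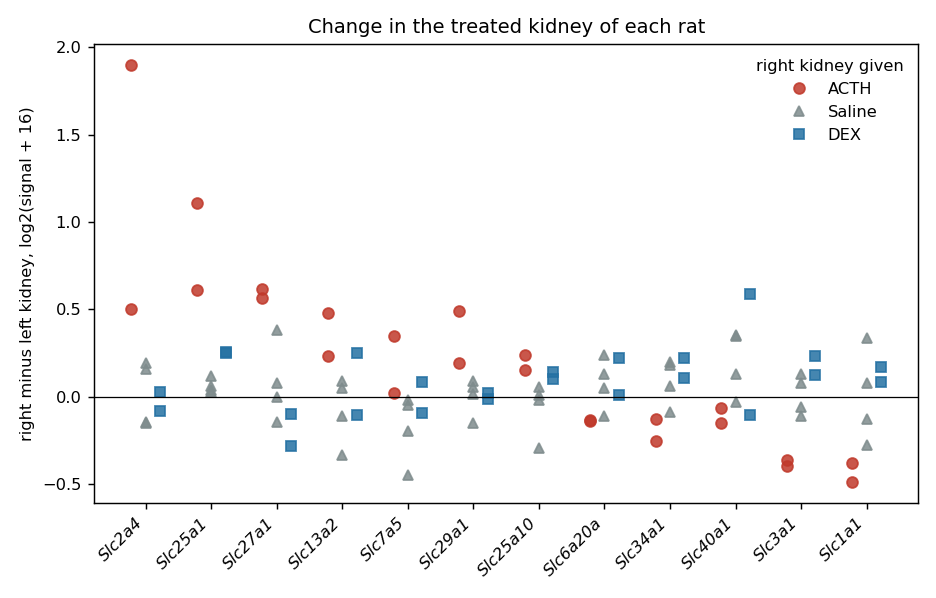
Right minus left change of log2(signal + 16) in each rat (y axis) for the 12 solute carrier genes whose ACTH rats both lay outside the 4 saline rats (x axis, 1 probe set per gene), with circles for ACTH, triangles for saline and squares for DEX. Slc2a4 and Slc25a1 reach 1.90 and 1.11 in ACTH rat 1, and Slc3a1 and Slc1a1 lie between −0.36 and −0.49 in both ACTH rats.

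The tested metal carriers were on the negative side with ACTH in 7 of 7 probe sets of 4 genes, with a median of −0.31. None passed, and over all probe sets 49.9% of ACTH effects were positive. Slc30a1, Slc41a2 and Slc41a3 were too dim to be tested. In both ACTH rats the right kidney read below the left one in Slc30a1 and Slc41a2. In Slc41a3 it read above it, 69.4 against 59.0 and 62.1 against 47.9. Most saline rats went the same way in each of these genes. Saline rat 6 fell from 45.99 to 35.06 in Slc30a1, and saline rat 4 from 64.75 to 52.05 in Slc41a2. The exceptions were saline rat 2 in Slc30a1 and saline rat 8 in Slc41a2 and Slc41a3. The count was again 7 of 7 after quantile normalization, but 6 of 7 without rat 2, 4 or 8, 5 of 7 without rat 1 and 4 of 7 with right kidneys only. Slc11a2, the iron importer DMT1, had −0.47 ± 0.21, −0.46 ± 0.20 and −0.11 ± 0.22. In AF008439_g_at the left kidney of rat 1 read 945 against 547 to 705 in the other left kidneys, and its right kidney read 498. There ACTH rat 5 fell from 631 to 523, beside 591 to 484 in saline rat 8. In AF008439_at ACTH rat 5 fell from 107 to 83.8, beside 136 to 91.5 in saline rat 6. In neither probe set was the fall in rat 5 larger than that in every saline rat. Slc40a1, the iron exporter ferroportin, had −0.31 ± 0.19 and −0.21 ± 0.19, and with right kidneys only the first was 0.06. The zinc carriers Slc30a4 and Slc30a2 had −0.35 ± 0.20 and −0.01 ± 0.15. DEX gave a median of 0.01, with 4 of 7 positive.

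Monocarboxylate carriers, which move lactate, pyruvate and ketone bodies, had a median ACTH effect of −0.20 with 3 of 7 positive. Slc16a6 read 49.5 and 51.3 in the ACTH right kidneys, below 55.7 to 91.0 on the left, with an effect of −0.50 ± 0.18 (adjusted p = 0.369). The saline right kidneys read 58.2 to 80.7, so the ACTH right kidneys were the lowest of all 16 arrays. Both readings lay below 60.5, the lowest mean signal of any tested probe set. The changes of the ACTH rats did not lie apart from those of the saline rats. ACTH rat 5 fell from 68.8 to 51.3, and saline rat 6 from 81.2 to 58.2. Slc16a12, the creatine carrier of this family, had −0.39 ± 0.24 from unlike changes of 0.04 and −0.97, and 0.32 ± 0.24 with DEX. Slc16a1, the lactate carrier MCT1, was the member with the clearest negative DEX values, −0.42 ± 0.18 and −0.39 ± 0.18 (both adjusted p = 0.999). The DEX right kidneys of its probe set D63834_at read 113 and 121 against 137 and 149 on the left, and the left kidney of saline rat 2 was the lowest array at 83.4. ACTH rat 5 also fell, from 160.7 to 130.7 there and from 316.6 to 244.6 in rc_AI145680_s_at. ACTH rat 1 went from 183.8 to 177.4 and from 338 to 364.4.

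Among carriers of dicarboxylates and sulfate, 1 of 3 ACTH effects was positive, and the bile acid carrier Slc10a2 of the same group had 0.14 ± 0.14. Slc13a2, the brush-border carrier NaDC1 of citrate and succinate, read 298 and 481 in the ACTH right kidneys against 251 and 341 in the left kidneys of the same rats, an effect of 0.43 ± 0.18 (adjusted p = 0.479). Slc13a3, its basolateral counterpart NaDC3, had −0.25 ± 0.23, and Slc13a1, the sulfate carrier, −0.26 ± 0.18. With DEX these had 0.15, 0.01 and 0.22 in the same order. Slc26a1, a basolateral sulfate exchanger, had −0.29 ± 0.23 and −0.09 ± 0.23.

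Acid-base carriers had ACTH effects from −0.33 (Slc4a7, a sodium-bicarbonate cotransporter) to 0.29 and DEX effects from −0.13 to 0.31. Slc9a3, the sodium-proton exchanger NHE3 of the brush border, read 143 and 144 in the ACTH right kidneys and 126 to 215 on the left. Its ACTH effect of −0.27 ± 0.18 came from changes of 0.06 and −0.53, and its DEX effect of 0.24 ± 0.18 from 0.28 in both DEX rats. The DEX value was −0.065 with right kidneys only. Slc4a4, the basolateral bicarbonate exit carrier NBCe1, had 0.29 ± 0.22 and −0.13 ± 0.22, and its ACTH value was −0.17 with the fat score in the fit. Slc4a1, the anion exchanger of intercalated and red cells, had 0.26 and 0.15 with ACTH and 0.31 and 0.11 with DEX.

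The peptide carriers had unlike values. Slc15a1, PEPT1, was near the brightness limit with 32.1 to 95.8 on the left and 77.3 and 66.9 in the ACTH right kidneys, an effect of 0.43 ± 0.20 (adjusted p = 0.522). The left kidney of rat 1 was the lowest array, the changes were 0.96 in rat 1 and 0.18 in rat 5, and the effect was 0.05 without rat 1. Slc15a2, the high-affinity PEPT2, had −0.31 ± 0.19 with ACTH and 0.30 ± 0.19 with DEX, a difference of −0.60 ± 0.22 (adjusted p = 0.3).

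Among nucleoside carriers, Slc29a1 (ENT1) had 0.34 ± 0.15 with ACTH (adjusted p = 0.493) and 0.00 with DEX, and Slc28a1 (CNT1) had 0.13 ± 0.16 and −0.30 ± 0.16. Slc29a2 (ENT2) had −0.11 ± 0.15 with DEX. Slc35a1, which brings the sialic acid donor into the Golgi, had the highest DEX effect of all members, 0.56 ± 0.23 (adjusted p = 0.999). Its DEX right kidneys read 199 and 160 against 124 and 148 on the left, and its saline changes ran from −0.62 to 0.05. Both DEX right kidneys lay inside the range of 108 to 207 of the saline right kidneys, and the left kidney of DEX rat 3 was the lowest of the left kidneys. The ACTH minus DEX difference was −0.82 ± 0.26 (adjusted p = 0.248).

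The remaining groups held small values. Slc14a2, the urea carrier of the medulla, had −0.01 ± 0.20 and −0.30 ± 0.20 for ACTH and DEX. Slc12a4, a potassium-chloride cotransporter, had −0.22 ± 0.18 with DEX. Vitamin, folate, choline and iodide carriers had negative ACTH effects in 6 of 7 probe sets with a median of −0.06, down to −0.28 ± 0.19 for Slc19a1, the reduced folate carrier. Slc5a3, the myo-inositol carrier of the medulla, had −0.22 ± 0.23 and 0.17 ± 0.23. Collecting duct and medulla markers were positive for ACTH in 8 of 8 genes, with a median of 0.22 that joined a mean change of 0.86 in rat 5 and −0.32 in rat 1. Their part in these values was not tested. The 5 neurotransmitter probe sets, among them the serotonin carrier Slc6a4 at −0.20 ± 0.13 and Slc6a3 at −0.16 ± 0.17 with DEX, lay between −0.20 and 0.22.

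In the direct comparison of the hormones, ACTH rats lay above both DEX rats in 20 members (17.5%, against 18.5% of all probe sets) and below them in 26 (22.8%, against 19.8%). The largest positive differences were 1.23 ± 0.33 for Slc2a4 (adjusted p = 0.14), 0.78 for Slc27a1 and 0.61 ± 0.20 for Slc25a1 (adjusted p = 0.252), followed by Slc28a1 and Slc4a4 at 0.42 and the dopamine carrier Slc6a3 at 0.39 (adjusted p = 0.476). The largest negative ones, after Slc25a30 and Slc35a1, were −0.81 for Slc34a1 in AB013453_at, −0.71 ± 0.28 for Slc16a12 and −0.60 for Slc15a2. Slc1a1 had −0.56 ± 0.22, Slc16a6 −0.54 ± 0.21 and Slc30a4 −0.54 ± 0.24. None passed.

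Without a hormone the right and left kidneys were close in most members. The lowest and highest values, −0.54 and 0.38, were both of Slc34a1, in AB013453_at and rc_AA891726_s_at. In the latter, rat 2 had the low left kidney described above. All 4 saline rats had a positive change in 8 members (7.02%, against 8.35%) and a negative one in 5 (4.39%, against 3.99%). Besides Slc34a1 in AB013453_at, the named values were 0.15 ± 0.08 for the lysosomal peptide carrier Slc15a4, 0.11 ± 0.09 for the potassium-chloride cotransporter Slc12a7, 0.06 for Slc25a1 and Slc20a2, −0.18 ± 0.10 for Slc7a5 and −0.19 ± 0.08 for Slc10a2, the apical bile acid carrier (all adjusted p = 1).

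The left kidneys of hormone rats were compared with those of saline rats because the route of treatment is not known. Both ACTH rats lay above all saline rats in 5 members (4.39%, against 3.32%) and below in 3 (2.63%, against 2.08%). Both DEX rats lay above in 0 (against 2.44%) and below in 8 (7.02%, against 2.42%). For ACTH these included Slc40a1 at 0.37 ± 0.19, Slc16a1 at 0.33 ± 0.20 and 0.46 ± 0.21 and Slc23a3, an orphan of the vitamin C carrier family, at 0.25 ± 0.19. On the lower side were Slc10a2, Slc4a1 and Slc7a5, each at −0.14. For DEX they included Slc35a1 at −0.35 ± 0.15, the sodium-calcium exchanger Slc8a1 at −0.33 ± 0.13 in 1 of its 2 tested probe sets (of 5), Slc25a14, a mitochondrial uncoupling-protein relative, at −0.23 ± 0.12, Slc29a1 at −0.18 ± 0.15, Slc34a1 at −0.15 ± 0.11 and Slc37a1 at −0.12 ± 0.13 (all adjusted p = 1).

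Some members differed mainly by rat. In 20 member probe sets of 19 genes (17.5%, against 18.3% of all probe sets) the 8 arrays of rats 1 to 4 did not overlap with the 8 arrays of rats 5 to 8. They were higher in rats 1 to 4 in 9 (7.89%, against 8.35%) and lower in 11 (9.65%, against 9.94%). The Slc11a2 probe set rc_AA892390_s_at averaged 252 in rats 1 to 4 (range 207 to 297) and 81.3 in rats 5 to 8 (range 56.4 to 109). Slc25a30 averaged 461 (range 363 to 624) and 168 (range 104 to 238), and Slc16a7, the lactate and pyruvate carrier MCT2, averaged 101 and 52.3. In the other direction Slc25a10 averaged 336 and 556 (rc_AA859666_i_at) and Slc1a1 456 and 737 (AF038571_s_at). Slc35b1, a member of the nucleotide sugar carrier family, averaged 212 and 344 (D87991_at). The other probe sets of Slc11a2, Slc25a10, Slc1a1 and Slc35b1 overlapped between the sets. Slc1a1 averaged 627 and 569 in D63772_at and 146 and 154 in L35558_s_at. Slc11a2 averaged 636 and 581 in AF008439_g_at and 87.1 and 103 in AF008439_at. In Slc25a10 and Slc35b1 the others were also lower in rats 1 to 4. The pairing of kidneys within a rat takes a difference between rats out of the effects.

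**Figure D5:**
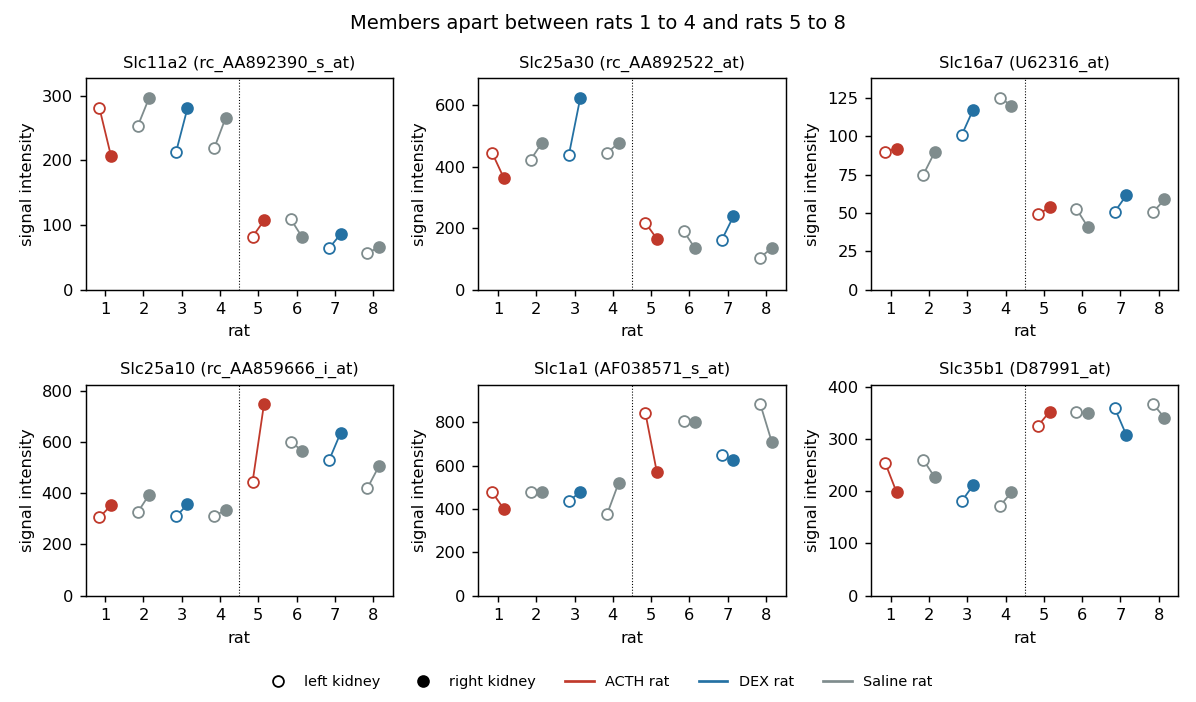
Signal intensity (y axis, from 0) by rat (x axis) of the 6 solute carrier probe sets with the largest differences between rats 1 to 4 and rats 5 to 8, 3 in each direction, open for left and filled for right kidneys, with a dotted line between the sets. Slc11a2 (rc_AA892390_s_at) stays at or above 207 in rats 1 to 4 and at or below 109 in rats 5 to 8.

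Regulators and partners of tubular transport, a list of 27 genes that holds brush-border peptidases, scaffold proteins, the parathyroid hormone receptor and the vitamin D system, gave 0 of 21 tested genes past the threshold in any of the 6 comparisons. For ACTH 11 of 21 were positive with a median of 0.02, and the aminopeptidase Anpep had −0.71 ± 0.23 (adjusted p = 0.291). For DEX 16 of 21 were positive with a median of 0.11, and the membrane carbonic anhydrase Car4 had 1.07 ± 0.27 (adjusted p = 0.999). Its changes were 0.37 in DEX rat 3 and 1.46 in DEX rat 7. In left kidneys alone Car4 lay at −0.95 in DEX rats over saline rats, so low left kidneys enter its DEX value. For ACTH minus DEX 6 of 21 were positive with a median of −0.19, and the peptidase Mme had −0.82 (adjusted p = 0.14).

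The 54 dim members stand for 37 genes, 26 of them with no brighter probe set, and they had mean signals of 9.71 to 60.6. They include carriers of neurons and other tissues, such as the vesicular carriers Slc17a7, Slc18a1, Slc18a2 and Slc32a1, and the cationic amino acid carriers Slc7a1, Slc7a2 and Slc7a3. Just outside the limit, which was set on mean log2 signal, were Slc1a3 (mean signal 60.3) and Slc41a3 (60.5), and just inside were a Slc2a3 probe set (60.6) and Slc15a1 (63.9). Fitted without the filter, 0 of the 54 passed in any of the 6 comparisons with limma, against 0.0286% of all 3496 dim probe sets for ACTH, 0.0572% for ACTH minus DEX and 0% for the others. At an unadjusted p under 0.05 there were 2 for ACTH (against 4.63% of all dim probe sets), 0 for DEX (2.29%), 2 for ACTH minus DEX (4.98%), 1 for right over left in saline rats (3.98%), and 0 for the left kidneys of ACTH rats (0.486%) and of DEX rats (0.772%). Their effects ran from −0.38 to 0.31 for ACTH, from −0.28 to 0.29 for DEX and from −0.67 to 0.43 for the difference. The zinc exporter Slc30a1, named after its values were seen, had the smallest p of them in the difference. Of 38 kidney carriers listed by name, 31 were on the array and tested, and 7 were not found among the symbols used here.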

How the data were processed

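The authors deposited linear signal intensities per probe set. For their software and normalization, nothing was stated (not given in the sources used here). Per the labels, biotin-labelled cRNA was made from total kidney RNA. After 59 control probe sets were removed, log2(signal + 16) of 8740 probe sets was taken, the 40% with the lowest mean (3496) were left out, and 5244 were fitted with limma 3.58.1 in R 4.3.3 (a term per rat, right kidney, ACTH and DEX, intensity trend, two-sided tests, Benjamini-Hochberg adjustment over 5244, threshold 0.05, 5 residual and 7.34 prior degrees of freedom). Left kidneys were fitted separately (prior 3.89). The kidneys of 1 rat pair by animal, and their deviations correlated at 0.552 to 0.71. The script was tested on simulated data. Depth has no counterpart here: the number of arrays limits precision.

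Named were, by direction, up to 12 genes for each hormone, 8 for the difference and 5 for the others, 1 probe set per gene (the brightest), by size of change among those whose groups did not overlap and then by p, plus 38 listed carriers where on the array. Members, lists and the alternatives (pseudocount, normalization, filter, trend, block, right kidneys only, each rat left out, fat covariate, either set of 4 rats) were chosen with earlier results of these data known. All 168 members matched a RefSeq gene.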

Additional observations from a re-analysis of the deposited data

Results flagged for a closer look

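In 76 member probe sets, 228 groups of 4 or 8 arrays were checked for a sample far from the rest, and 9 were found where chance gives about 1 in 20, or 11. High values were the Slc11a2 left kidney of rat 1 (AF008439_g_at, 944.9 against 547.3 to 705.2), the Slc15a1 saline right kidney of rat 8 (92.89 against 62.68 to 63.52) and the Slc25a11 change in saline rat 4 (U84727_at, 0.34 against −0.03 to 0.01, log2). Low left kidneys were Slc23a3 in rat 8 (165 against 238.6 to 273.6), Slc25a4 in rat 3 (813.5 against 965.8 to 1031), Slc2a4 in rat 3 (rc_AA799760_s_at, 51.65 against 58.18 to 64.18) and Slc34a1 in rat 2 (rc_AA891726_s_at, 1191 against 2644 to 3739). Low saline right kidneys were Slc30a4 in rat 6 (47.72 against 81.78 to 87.05) and Slc7a5 in rat 8 (129.8 against 167.7 to 169). Rats 3 and 8 appear more than once in these values.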

How the results depend on the processing

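Of 1477 alternative values for 81 member values, 1447 kept their direction and did not pass, 16 reversed and 14 passed the threshold. Without the rat as replicate block, 0 members and 0 of all probe sets passed in limma in the 4 comparisons of right kidneys. With right kidneys only, 0 passed in the 3 hormone comparisons. The main fit tested 114 members among 5244 probe sets, and the member counts below have to be read beside those over all probe sets. The latter, given in the last paragraph, also rose within rats 1 to 4. Whether members passed more often than other probe sets in these settings was not tested. Members past the threshold numbered 7 within rats 1 to 4 for ACTH (Slc11a2 in 2 probe sets, Slc15a1, Slc16a6, Slc25a1, Slc2a1 and Slc2a4), 6 for ACTH minus DEX and 1 (Slc34a1, rc_AA891726_s_at) for right over left in saline rats, in fits with 1 rat per hormone and 1 residual degree of freedom. Leaving out 1 rat gave 0 to 2 members for ACTH (Slc2a4 and Slc25a1 without rat 5) and 0 to 2 for ACTH minus DEX (Slc34a1 and Slc16a12 without rat 1, Slc2a4 without rat 5).

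Reversed values were, for ACTH, Slc16a12 at 0.116 within rats 1 to 4 and −0.886 to 0.116 with 1 rat left out (highest without rat 5), Slc40a1 at 0.058 with right kidneys only, Slc4a4 at −0.166 with the fat covariate and −0.002 to 0.586 with 1 rat left out (lowest without rat 1), Slc6a18 at −0.041 within rats 1 to 4 and Slc9a3 at −0.566 to 0.025 with 1 rat left out (highest without rat 5). For DEX they were Slc10a2 at 0.019 with the fat covariate and −0.185 to 0.005 with 1 rat left out (highest without rat 3), Slc25a23 at 0.088 and Slc29a2 at 0.06 within rats 5 to 8, Slc29a2 at −0.247 to 0.034 with 1 rat left out (highest without rat 3) and Slc9a3 at −0.065 with right kidneys only. For ACTH minus DEX they were Slc14a2 at −0.013 and Slc4a4 at −0.115 with right kidneys only, and Slc4a4 at −0.438 with the fat covariate. The causes were not tested.

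Among all probe sets, ACTH counted 26, but 12 after quantile normalization, 6 with the fat covariate, 296 within rats 1 to 4, 0 within rats 5 to 8 and 9 to 114 with 1 rat left out. DEX counted 40 within rats 1 to 4 and 0 to 3 with 1 rat left out. ACTH minus DEX counted 30, but 255 within rats 1 to 4, 0 within rats 5 to 8 and 2 to 100 with 1 rat left out. Right over left in saline rats counted 72 within rats 1 to 4, 4 with the fat covariate, 0 to 1 with 1 rat left out and 1 in each of 5 further settings. Left kidneys counted 0 to 2 with 1 rat left out. With 2 rats per hormone and a median standard error of 0.18, effects of up to 1.19 (Slc2a4, standard error 0.29) did not pass among the members, so a value that missed the threshold does not show the absence of a change at this number of arrays.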
